A study of Dirofilaria immitis with 5 samples.

Results

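The less studied named miRNAs of Dirofilaria immitis culture medium were the rows of a small RNA table that carried a miRNA name from another nematode, reached 10 or more reads in at least 1 library, and did not bear one of the better studied names or numbers (among them let-7, lin-4, bantam, miR-71, miR-34 and miR-100). There were 31 such sequences among the 1228 distinct sequences of the table. Of the 173 named rows, 81 reached 10 reads in some library, and 50 of these had a better studied name or number. A further 51 named rows had a less studied number but stayed under 10 reads everywhere. The read minimum was the only measured value that chose the members. The members just inside it were bma-miR-283_R-2 (highest count 11), bma-miR-234_R+3 (12) and bma-mir-5838-1-p5 (13), and the rows just outside were asu-miR-750-3p (8 reads, all in adult males), asu-miR-86-3p_R+1_2ss8GA20CG (7) and cel-miR-72-5p_R+1 (7).

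The samples were concentrated media from live whole worms of the heartworm, a filarial nematode of dogs, in 5 libraries: adult males, adult females, microfilariae (the larvae that circulate in blood), the infective larvae of the third stage (L3), and larvae of the fourth stage (L4). There was 1 library per group, and no agent or genotype is named. There were therefore no replicates and no test across samples, and each statement compares single libraries. Worm numbers and culture times were not given in the sources used here, so fewer worms and less RNA released per worm cannot be told apart.

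miRNAs are short RNAs cut from a hairpin precursor, and either arm of the hairpin can yield one. Bases 2 to 8, the seed, pair with target mRNAs, and miRNAs with the same seed are counted as a family. Parasitic nematodes release miRNAs into their surroundings, and some of these have been found in host blood. Several members belong to families known in other animals. miR-72 has the seed of the miR-31 family, miR-83 and miR-49 that of miR-29, miR-46 that of miR-281, and miR-307 that of miR-67. Others, such as miR-5360 and miR-5866, are known by number only. The prefix of a name gives the species of the reference miRNA, not the source of the reads: Ascaris suum (asu), Brugia malayi (bma), Haemonchus contortus (hco), Caenorhabditis elegans (cel), Caenorhabditis remanei (crm) or Panagrellus redivivus (prd).

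The sequences below are those on which the results turn, read from the deposited table, 5′ to 3′, with the seed in capitals. The first set holds the members with most reads and those that stood apart in 1 library.
asu-miR-5360-5p: aCGAATCGtcgaatcggatgtct
crm-mir-239b-p5_1ss6AC: tGCACCAAagctctgact
bma-miR-239_R-1: tTTGTACTtcggctaaggtgct
asu-miR-86-5p: tAAGTGAAtgctttgccacagtct
hco-miR-993_R-1_2ss11GT22AG: tAAGCTCGtctctacaggcagg
bma-miR-5866: tTACCATGttgatcgatctcca
cel-mir-5592-1-p3_1ss8TC: tTCCCGGCcgatgcacca
bma-miR-1822: gAGCTGCCccttgaaagactaa

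The second set holds members that share a seed with another row, with asu-miR-87b-3p, not a member, beside bma-miR-5843.
bma-miR-72_R-2: aGGCAAGAtgttggcatagct
prd-miR-72-5p_R+3: aGGCAAGAtgttggcatagctgaga
cel-miR-83-3p_2ss10AT22AT: tAGCACCAtttaaattcagtat
bma-miR-49: aAGCACCAtgtgaagctgctct
bma-miR-5843: aTGAGCAActttgccttcgttga
asu-miR-87b-3p: gTGAGCAAagtttcaggtgttc

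The third set holds pairs whose names assign them to both arms of 1 hairpin. This rests on the names alone, since no sequence was placed in a genome or precursor here.
asu-miR-46-5p_1ss11TC: aAGAGAGCcacctgttgacagt
cel-miR-46-3p_2ss12CT21CT: tGTCATGGagttgctctcttta
bma-miR-153: tTGCATAGtcacaaaagtgatg
bma-mir-153-p5: aTCATTTTtgtggattagcaatt

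The 31 members had 26 different numbers and 29 different seeds. Only the miR-72 pair and the pair of miR-83 and miR-49 shared a seed among themselves. The 2 miR-72 rows are alike at all 21 positions compared, so the second is a longer form of the first and does not count as a separate miRNA. miR-83 and miR-49 are alike at 13 of 22 positions. Outside the members, bma-miR-5843 had the seed of asu-miR-87b-3p and bma-miR-87b_R+2, and was alike at 13 of 22 and 11 of 22 positions. bma-miR-283_R-2 had the seed of the candidate PC-3p-5721_189, with 8 of 21 positions alike. Among the other named rows and candidates with 10 or more reads, 23 members shared their seed with no row. Both miR-46 rows had a candidate 1 base longer, PC-5p-49976_10 and PC-3p-19249_37, and miR-83 had a candidate alike at 21 of 22 positions, PC-3p-36052_16. These 3 candidates had 15, 44 and 15 reads in microfilariae and 2 each in females.

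In first base the members were like the better studied rows. A first base of T was found in 19 of 31 members (61.3%) and in 31 of 50 better studied rows (62.0%), against 28 of 109 predicted candidates (25.7%). The median length was 22 nt, and 25 of 31 members had 21 to 23 nt. The 4 members under 20 nt were crm-mir-239b-p5_1ss6AC, cel-mir-5592-1-p3_1ss8TC, bma-mir-5843-p3 and hco-mir-5971-p5_1ss2AG, all from the 7 members whose name has a lower-case mir and an ending p3 or p5. Under 20 nt were also 1 of the 50 better studied rows and 21 of the 109 candidates. The ending CCA, which mature tRNAs carry, was found in 2 members, bma-miR-5866 and cel-mir-5592-1-p3_1ss8TC, in 0 of the 50 better studied rows and in 2 candidates. Whether those reads came from tRNA was not tested. For 5 members the authors list dog genome matches, none of them exact: crm-mir-239b-p5_1ss6AC (9 matches), and 1 each for cel-mir-5592-1-p3_1ss8TC, bma-miR-72_R-2, bma-mir-5841-p3 and bma-miR-153. Dog matches of any kind were thus listed for 5 of 31 members, against 11 of the 50 better studied rows and 16 of the 109 candidates. Exact matches were listed for 9 of the 50 better studied rows and 5 of the 109 candidates. Whether the reads of the 5 members came from dog material was not tested.

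The table held 727018 reads for microfilariae, 34448 for L3, 326187 for L4, 376070 for adult females and 32983 for adult males. This was 20.2% of the mappable reads given in the file header for microfilariae, 12.2% for females, 5.08% for L4 and about 1% or less for males and L3. Below, a share means a percentage of the table reads, and a fold divides 1 share by another. Ranges after "95% interval" are exact binomial intervals that cover counting error only, since PCR copies are not independent molecules. A count of 0 allows up to 3 reads, which is 0.000413% in microfilariae and 0.00910% in males, so a low share could be seen in the first library and missed in the second. bma-lin-4, which is not a member, held 89.6% of the L4, 70.6% of the L3 and 35.8% of the male reads, and the shares of all other rows are set against what it left.

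Together the members held 4.88% of the reads in adult males (95% interval 4.65 to 5.11) and 4.40% in adult females (4.33 to 4.47). They held 1.96% in microfilariae (1.93 to 1.99), 0.412% in L3 (0.347 to 0.486) and 0.220% in L4 (0.204 to 0.237). The male share was 1.11-fold the female share (95% interval 1.05 to 1.17), the female share 2.24-fold the microfilarial share (2.19 to 2.30), the microfilarial share 4.76-fold the L3 share (4.03 to 5.65) and the L3 share 1.87-fold the L4 share (1.55 to 2.24). Set per mappable read, the male level was 0.0912 of the female level, and under TMM scaling (edgeR's trimmed mean of log ratios) it was 0.624. With the authors' library size parameter the microfilarial sum was below both larval sums, and L4 was above L3 under median of ratios, per mappable read and without the most abundant rows. In reads the sums were 14252, 142, 718, 16547 and 1608 for microfilariae, L3, L4, females and males.

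**Figure D1:**
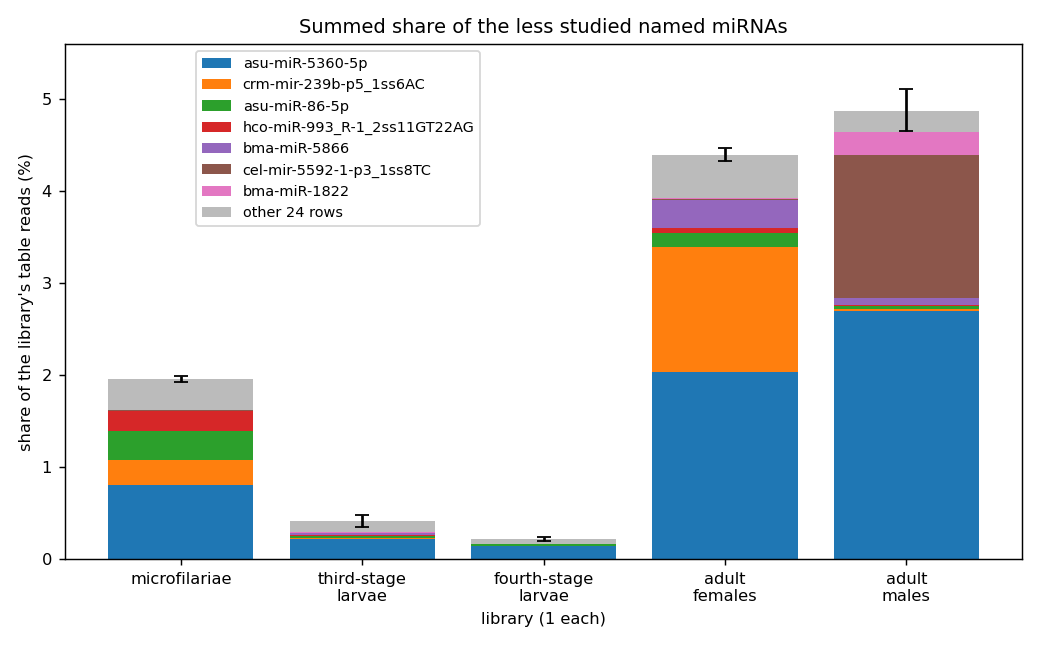
Summed share of the 31 members in each library, in percent of the library's table reads, with 7 members in colour, the other 24 rows in grey and black bars for the exact 95% interval of the sum. asu-miR-5360-5p makes up 41.4% of the members' reads in microfilariae and up to 65.5% in L4, crm-mir-239b-p5_1ss6AC stands out in females and cel-mir-5592-1-p3_1ss8TC in males.

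A few members carried these sums. asu-miR-5360-5p was first in every library, with 54.2% of the members' reads in L3, 46.4% in females and 55.5% in males. The 5 most abundant members of each library held 78.2% (L3) to 95.8% (males) of the members' reads. Behind asu-miR-5360-5p came asu-miR-86-5p in microfilariae (16.3% of the members' reads), L3 (7.04%) and L4 (7.38%), crm-mir-239b-p5_1ss6AC in females (30.7%) and cel-mir-5592-1-p3_1ss8TC in males (31.9%).

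The number of members found at 10 or more reads was 26 in microfilariae, 24 in females, 11 in L4, 7 in males and 2 in L3. In L3 these were asu-miR-5360-5p and asu-miR-86-5p, and the same pair were the only members found in all 5 libraries. Of the others, 10 members were found in 1 library, 9 in 2, 8 in 3 and 2 in 4. When each library was thinned at random to 32983 reads, 9 members remained at 10 or more reads in microfilariae, 8 in females and 1 in L4.

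**Figure D2:**
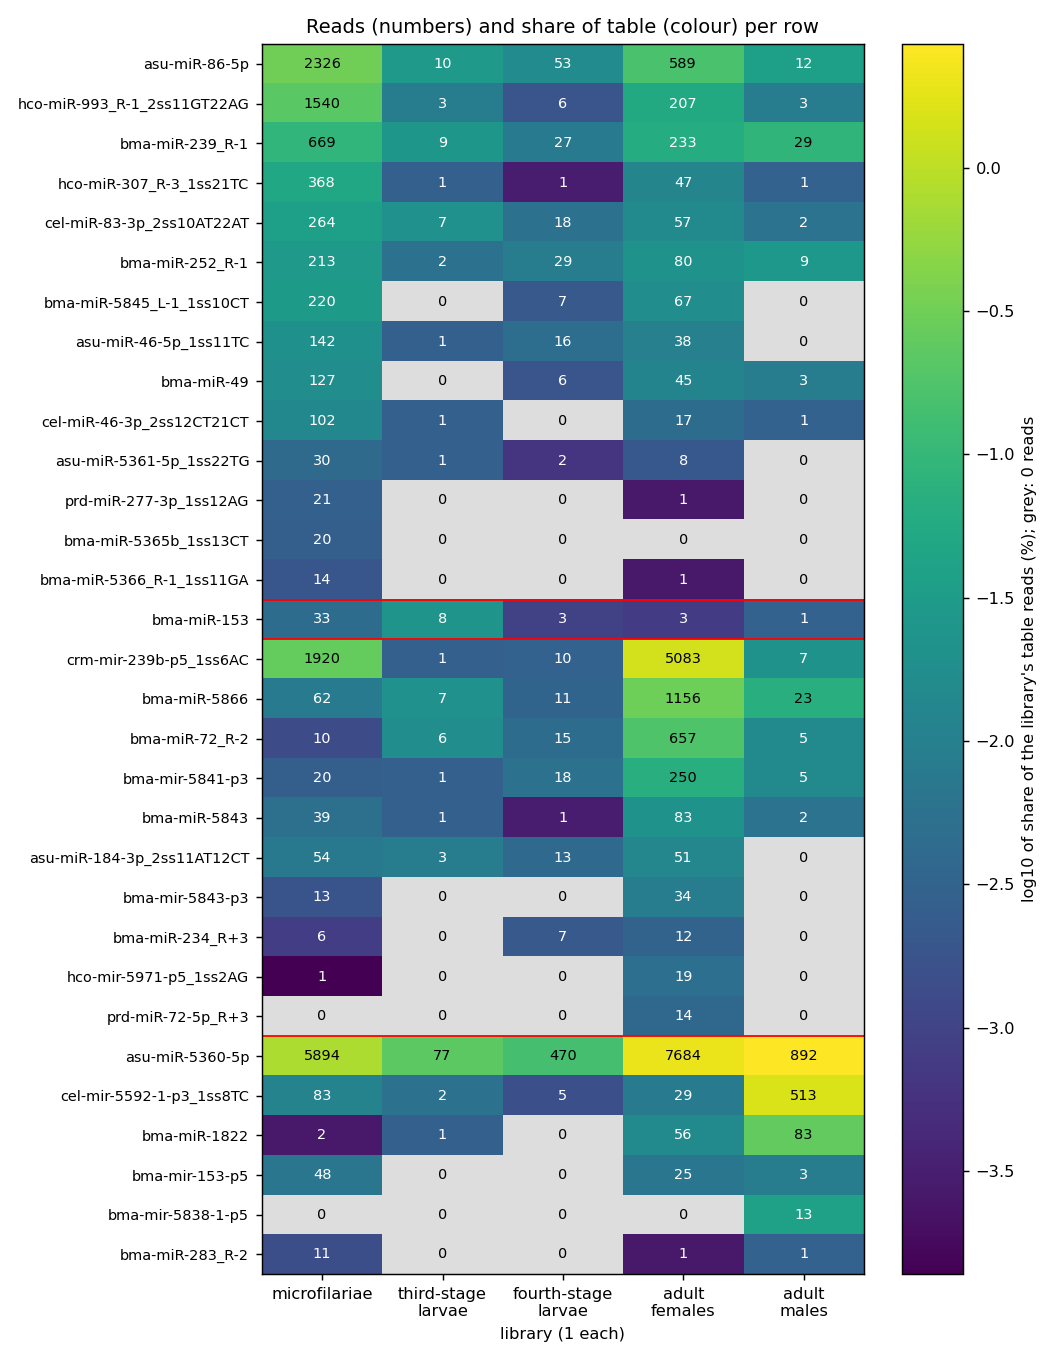
Reads (numbers) of each of the 31 members in each library, with colour for the log10 of the share in percent and grey for 0 reads, grouped by red lines into members with their highest share in microfilariae, L3, females and males. The L4 library leads for no member, and 17 members have 0 reads in at least 1 library.

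By share, 14 members were highest in microfilariae, 10 in females, 6 in males, 1 in L3 and 0 in L4. Over all 190 rows of the table with 10 or more reads, 32.1% were highest in microfilariae, 35.8% in females, 19.5% in males, 10% in L3 and 2.63% in L4. For 21 members the first library was above the second beyond counting error: 9 led by microfilariae, 7 by females, 4 by males and 1 by L3. Libraries further down the order were not compared in this count. The 10 members found in 1 library entered through that library alone, so a lead there was tied to selection. Females against males was undecided for bma-mir-5843-p3, hco-mir-5971-p5_1ss2AG and prd-miR-72-5p_R+3, all counted here. Microfilariae against L3 was undecided for prd-miR-277-3p_1ss12AG and bma-miR-5366_R-1_1ss11GA, and for cel-miR-46-3p_2ss12CT21CT the interval included equal shares. Both undecided rows also had 0 male reads, and their microfilarial shares (0.00289% and 0.00193%) lay below the male limit of 0.00910%. For bma-miR-49 the interval of the male share (0.00188 to 0.0266%, on 3 reads) reached past the microfilarial share of 0.0175%. The leading library was the same for 18 members under each of the 6 other scalings that gave them a value, of which 8 were led by females, 7 by microfilariae and 3 by males. Among the 18, bma-miR-5365b_1ss13CT, prd-miR-72-5p_R+3 and bma-mir-5838-1-p5 had reads in a single library, so no scaling could change their leader. Of the 18, 11 had 50 or more reads in a library. The scaling without dog-matching rows gave no value for the dog-listed members, 4 of which are among the 18.

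asu-miR-5360-5p, a miRNA named from Ascaris suum, was the member with the most reads. It had 5894 reads in microfilariae (0.811%), 77 in L3 (0.224%), 470 in L4 (0.144%), 7684 in females (2.04%) and 892 in males (2.70%). The adult libraries were high, the larval libraries low and microfilariae between them, and each neighbour in this order of shares differed beyond counting error. Males were 1.32-fold above females (95% interval 1.23 to 1.42) by share, and females were above males under TMM scaling and per mappable read. L3 were above microfilariae under median of ratios and with the authors' parameter, and L4 above L3 under 4 of the 6 other scalings. The rows of the table with the most similar profile were the candidate PC-3p-4719_239, at a distance of 1.04 between centred log2 shares, and bma-miR-228, at 1.28, against a median distance of 4.13 over 189 rows. For such distances a count under 3 was set to 3. The likeness is a description over 5 libraries.

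asu-miR-86-5p, conserved among nematodes, had 2326 reads in microfilariae (0.320%), 10 in L3 (0.0290%), 53 in L4 (0.0162%), 589 in females (0.157%) and 12 in males (0.0364%). Microfilariae led, 2.04-fold above females (95% interval 1.87 to 2.24), and females were 4.30-fold above males (2.45 to 8.38). Males and L3, and L3 and L4, were not separated from each other. hco-miR-993_R-1_2ss11GT22AG, a relative of miR-10 known from arthropods, had 1540 reads in microfilariae, 3 in L3, 6 in L4, 207 in females and 3 in males. Its share in microfilariae was 3.85-fold the female share (3.33 to 4.47), with single-digit counts in the remaining libraries. Nearest to miR-86 in profile were bma-miR-5845_L-1_1ss10CT, also a member, at a distance of 1.46, and bma-miR-100b_R+1 at 1.52, against a median of 4.86. The first had 0 reads in L3 and males, where its values were set by the limit of 3 counts. Nearest to miR-993 were cel-miR-71-5p_R+1 at 1.79 and bma-miR-50 at 1.81, against a median of 5.89. cel-miR-71-5p_R+1 had 0 reads in L3, so its L3 value was set by the limit of 3 counts.

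The rows named for miR-239 did not behave as 1 miRNA. In C. elegans the miR-239 genes act in stress responses and lifespan. bma-miR-239_R-1 had 669 reads in microfilariae (0.0920%), 9 in L3 (0.0261%), 27 in L4 (0.00828%), 233 in females (0.0620%) and 29 in males (0.0879%). Microfilariae and males did not separate (1.05-fold, 95% interval 0.722 to 1.57). crm-mir-239b-p5_1ss6AC had 1920 reads in microfilariae (0.264%), 1 in L3 (0.00290%), 10 in L4 (0.00307%), 5083 in females (1.35%) and 7 in males (0.0212%). Females were 5.12-fold above microfilariae (4.86 to 5.40), and the other libraries were low. The table lists 9 inexact dog matches for it. Beyond the number, the pair shared 1 base at the start of the sequence and no run of 15 bases. bma-miR-239_R-1 made up 4.38% of the pair's reads in females (3.85 to 4.97) and 80.6% in males (64 to 91.8). The profiles nearest to crm-mir-239b-p5_1ss6AC were the candidates PC-5p-1987_638, at a distance of 2.22, and PC-5p-717_1743, at 2.41, against a median of 7.54 over 189 rows. The candidates had 0 and 1 reads in L3 and crm-mir-239b-p5_1ss6AC 1, so these L3 values were all set by the limit of 3 counts.

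Members led by females included the miR-31 relative bma-miR-72_R-2. It had 10 reads in microfilariae (0.00138%), 6 in L3 (0.0174%), 15 in L4 (0.00460%), 657 in females (0.175%) and 5 in males (0.0152%). Females were 10-fold above L3 (95% interval 4.58 to 27.4), next in order. Its longer form prd-miR-72-5p_R+3 had 14 reads in females and 0 in the rest, and the shorter form held 97.9% of the pair's female reads. The table lists 1 inexact dog match for the shorter form. bma-miR-5866, known by number only, had 62, 7, 11, 1156 and 23 reads from microfilariae to males in the same order, and its female share of 0.307% was 4.41-fold the male share (2.92 to 6.98). The candidates PC-3p-9199_101 at a distance of 1.31 and PC-3p-16645_46 at 1.35 were nearest to it, against a median of 4.85. They had 38, 0, 2, 223 and 6 reads, and 16, 0, 0, 188 and 0. Their lowest values were thus set by the limit of 3 counts. bma-mir-5841-p3 had 20, 1, 18, 250 and 5 reads, and the female share of 0.0665% was 4.39-fold the male share (1.85 to 13.6).

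bma-miR-5843, with the seed of miR-87b, had 39 reads in microfilariae, 1 in L3, 1 in L4, 83 in females and 2 in males. asu-miR-87b-3p had 1956, 3, 2, 359 and 50. The row with the miR-87b name was thus highest by share in microfilariae (0.269%) and bma-miR-5843 in females (0.0221%), 4.11-fold above microfilariae (95% interval 2.78 to 6.18). The female share of bma-miR-5843 was not separated from the male one (3.64-fold, 0.976 to 30.6, on 2 male reads). The other row with this number, bma-mir-5843-p3, had 13 reads in microfilariae, 34 in females and 0 elsewhere. Both rows with this number thus had their highest point share in females, and neither was separated from males. For bma-mir-5843-p3 that comparison was undecided, at 0 male reads.

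In males cel-mir-5592-1-p3_1ss8TC, which ends in CCA and has 1 inexact dog match in the table, had 513 reads (1.56%). It had 83 reads in microfilariae (0.0114%), 2 in L3, 5 in L4 and 29 in females (0.00771%). The male share was 136-fold the next one, that of microfilariae (95% interval 108 to 174). bma-miR-1822, a number also known from C. elegans, had 2, 1, 0, 56 and 83 reads from microfilariae to males, with 0.252% in males. Both adult libraries held it, and 3 reads in all lay in the other libraries. bma-mir-5838-1-p5 had 13 reads in males and 0 in each of the other libraries. bma-mir-153-p5 and bma-miR-283_R-2 also had their highest share in males, on 3 reads and 1 read, and were not separated from the next library.

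Further members were highest by share in microfilariae. hco-miR-307_R-3_1ss21TC, with the seed of C. elegans miR-67, had 368 reads there, 47 in females and 1 in each of the other libraries, and microfilariae were 4.05-fold above females (95% interval 2.98 to 5.61). bma-miR-252_R-1, conserved among invertebrates, had 213 reads in microfilariae (0.0293%), 2 in L3, 29 in L4 (0.00889%), 80 in females (0.0213%) and 9 in males (0.0273%). Its 3 leading shares were close, and microfilariae and males did not separate (1.07-fold, 0.555 to 2.38). bma-miR-5845_L-1_1ss10CT had 220 reads in microfilariae, 7 in L4, 67 in females and 0 in L3 and males, and microfilariae were 1.70-fold above females (1.29 to 2.27).

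The members with the miR-29 family seed were cel-miR-83-3p_2ss10AT22AT and bma-miR-49. C. elegans miR-83 acts in cell migration during gonad formation. miR-83 had 264 reads in microfilariae (0.0363%), 7 in L3 (0.0203%), 18 in L4 (0.00552%), 57 in females (0.0152%) and 2 in males (0.00606%). bma-miR-49 had 127, 0, 6, 45 and 3. For both rows microfilariae were above females, 2.40-fold (95% interval 1.79 to 3.25) and 1.46-fold (1.03 to 2.10). miR-49 was 32.5% of the pair's reads in microfilariae (27.9 to 37.4) and 44.1% in females (34.3 to 54.3). For miR-83, microfilariae and L3 were not separated (1.79-fold, 0.855 to 4.49). L3 led for it under TMM, median of ratios, the authors' parameter and without the most abundant rows.

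Rows named for both arms of miR-46 were found. The 5p row asu-miR-46-5p_1ss11TC had 142 reads in microfilariae, 1 in L3, 16 in L4, 38 in females and 0 in males, and the 3p row cel-miR-46-3p_2ss12CT21CT had 102, 1, 0, 17 and 1. The sequences printed above can pair at 18 positions, over bases 1 to 21 of each, with a computed energy of -19.9 kcal/mol. The 3p row was 41.8% of the pair's reads in microfilariae (95% interval 35.5 to 48.3) and 30.9% in females (19.1 to 44.8). In L4 it was 0 of 16, and the interval reached 20.6%, below that of microfilariae.

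miR-153 acts on synaptic release genes in vertebrates and is a neural miRNA there. bma-miR-153 had 33 reads in microfilariae, 8 in L3 (0.0232%), 3 in L4, 3 in females and 1 in males. It was the only member with its highest share in L3, 5.12-fold above microfilariae (95% interval 2.04 to 11.3), on a count under the read minimum, and microfilariae led per mappable read. bma-mir-153-p5, which can pair with it at 20 positions (-19.5 kcal/mol), had 48, 0, 0, 25 and 3 reads. bma-miR-153 was 40.7% of the pair's reads in microfilariae (29.9 to 52.2), 10.7% in females (2.27 to 28.2) and 8 of 8 in L3, where the interval began at 63.1%. The rows with the miR-153 name thus differed in their ratio between these libraries beyond counting error. The pair for miR-5843 matched less well, with 10 pairs and -13.7 kcal/mol, and its ratio was alike in microfilariae (75.0% bma-miR-5843, 61.1 to 86) and females (70.9%, 61.8 to 79).

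The remaining members were scarce. asu-miR-184-3p_2ss11AT12CT, whose Drosophila relative acts in egg formation, had 54 reads in microfilariae, 3 in L3, 13 in L4, 51 in females and 0 in males. Its female share was highest and not separated from the L3 share (1.56-fold, 0.504 to 7.80, on 3 L3 reads). Females were 1.83-fold above microfilariae (1.22 to 2.73), and L3 or L4 led under 4 of the 6 other scalings. bma-miR-234_R+3, a neuronal miRNA in C. elegans, had 6 reads in microfilariae, 7 in L4, 12 in females and 0 in L3 and males. Highest in microfilariae were asu-miR-5361-5p_1ss22TG (30 reads), prd-miR-277-3p_1ss12AG (21), bma-miR-5365b_1ss13CT (20) and bma-miR-5366_R-1_1ss11GA (14), with 8, 1, 0 and 1 reads in females. asu-miR-5361-5p_1ss22TG was not separated from L3 (1.42-fold, 0.236 to 58, on 1 L3 read), and L3 led under 4 of the 6 other scalings. The rest of these had 0 L3 reads, and microfilariae against L3 was undecided for them. The Drosophila relative of miR-277 acts on the breakdown of branched-chain amino acids. bma-miR-283_R-2 had 11 reads in microfilariae, and hco-mir-5971-p5_1ss2AG had 19 in females against 1 in microfilariae. In all, 12 members had under 50 reads in every library.

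Ratios between members within 1 library do not depend on the scaling. Set per 1000 reads of asu-miR-5360-5p, asu-miR-86-5p was at 395 in microfilariae (95% interval 376 to 414), 130 in L3 (59.9 to 252), 113 in L4 (83.2 to 150), 76.7 in females (70.4 to 83.4) and 13.5 in males (6.92 to 23.6). It thus ran lowest in males and highest in microfilariae, with the larval values between. crm-mir-239b-p5_1ss6AC was at 326 in microfilariae (309 to 343) and 662 in females (638 to 685), against 13, 21.3 and 7.85 in L3, L4 and males. The highest upper bound of those 3 was 74.5. bma-miR-239_R-1 was at 114 in microfilariae (105 to 123), 117 in L3 (51.5 to 234) and 57.4 in L4 (37.5 to 84.7), and was alike in females at 30.3 (26.5 to 34.5) and males at 32.5 (21.6 to 47).

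On the same scale bma-miR-72_R-2 was at 1.70 in microfilariae (95% interval 0.813 to 3.12), 77.9 in L3 (27.7 to 177), 31.9 in L4 (17.7 to 53.2), 85.5 in females (78.8 to 92.6) and 5.61 in males (1.82 to 13.1). Females and L3 were alike within counting error. bma-miR-252_R-1 was at 61.7 in L4 (40.9 to 89.8), 26.0 in L3 (3.09 to 97.1), 36.1 in microfilariae (31.4 to 41.4), 10.4 in females (8.25 to 13) and 10.1 in males (4.60 to 19.2), and L4 and L3 were not separated. asu-miR-184-3p_2ss11AT12CT stood at 39.0 in L3 (7.86 to 118) and 27.7 in L4 (14.6 to 47.8), with L4 above microfilariae at 9.16 (6.87 to 12) and females at 6.64 (4.94 to 8.74). cel-mir-5592-1-p3_1ss8TC was at 575 in males (515 to 642), and between 3.77 and 26.0 in the other libraries.

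**Figure D3:**
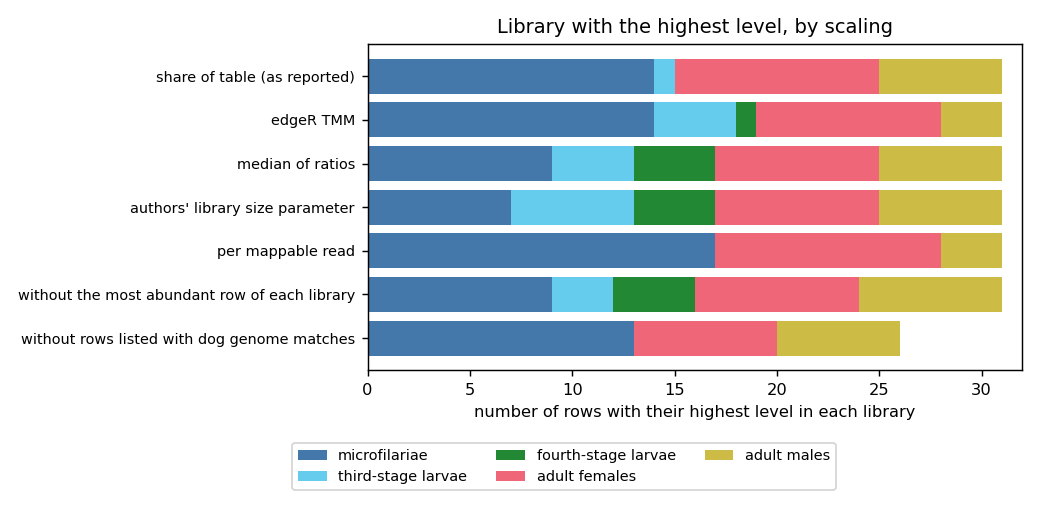
Number of members with their highest level in each library under the share of the table and 6 other scalings, with colours for the libraries. The number led by females stays between 7 and 11, while that led by microfilariae runs from 7 with the authors' parameter to 17 per mappable read.

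Females were set against males to compare the sexes. Among the 25 members that reached 10 reads in 1 of the sexes, 9 were at least 2-fold higher in females and 3 in males, while 33.6% and 20% of all 140 rows compared were. The female share of members called (36.0%) was close to this background and the male share (12%, 3 members) below it. The members higher in females were crm-mir-239b-p5_1ss6AC (63.7-fold, 95% interval 30.9 to 158), bma-miR-72_R-2 (11.5-fold, 4.91 to 35.6), hco-miR-993_R-1_2ss11GT22AG (6.05-fold, 2.04 to 29.6), bma-miR-5866, bma-mir-5841-p3, asu-miR-86-5p, hco-miR-307_R-3_1ss21TC, bma-miR-5843 and cel-miR-83-3p_2ss10AT22AT. For the last 3 the interval included equal shares. Higher in males were cel-mir-5592-1-p3_1ss8TC (202-fold, 139 to 304), bma-miR-1822 (16.9-fold, 11.9 to 24.2) and bma-mir-5838-1-p5 (at least 49.4-fold, 13 reads against 0). Rows with a lower-case mir were split, with 2 of 7 higher in each sex. None of the 12 directions turned under the other scalings, of which the one without dog-matching rows leaves out 4 of them. bma-mir-5838-1-p5 had 0 female reads, so its direction could not turn. It reached the read minimum only in males, which ties its direction to its selection. The median log2 ratio of the members was 0.40 against 0.00 over all rows.

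**Figure D4:**
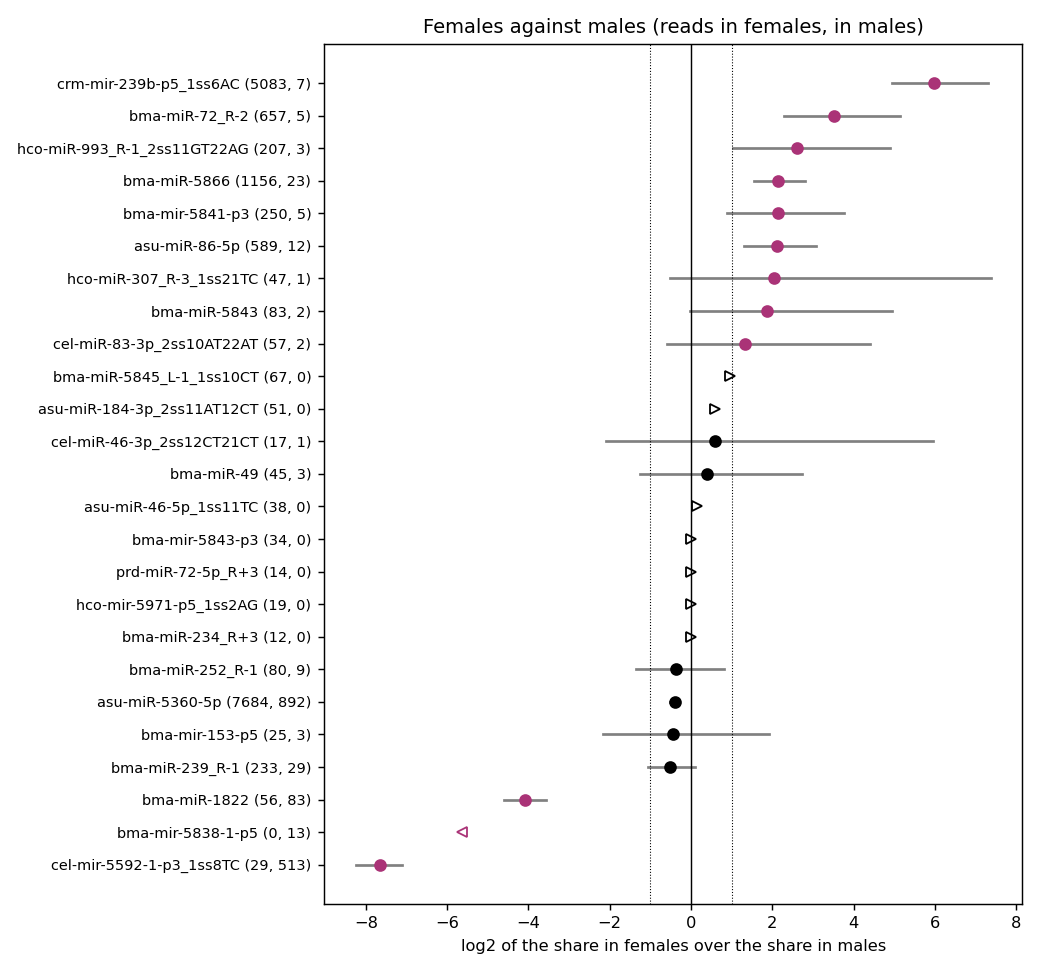
Log2 of the female over the male share for the 25 members compared, with grey lines for the exact 95% interval, open triangles for bounds where 1 library had 0 reads, and purple for members at least 2-fold different. Reads in females and males stand after each name, and dotted lines mark 2-fold.

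L3 and L4 larvae stand on either side of the molt that follows infection. Of 11 members compared, 5 were at least 2-fold higher in L3 and 0 in L4, against 50% and 6.06% of all 66 rows. The share of members called, 45.5%, was near the background. bma-miR-5866 was 6.03-fold (95% interval 1.98 to 17.0), bma-miR-72_R-2 3.79-fold (1.20 to 10.3), cel-miR-83-3p_2ss10AT22AT 3.68-fold (1.30 to 9.24) and bma-miR-239_R-1 3.16-fold (1.31 to 6.91) higher in L3, each on under 10 reads there. The fifth, asu-miR-184-3p_2ss11AT12CT, rested on 3 reads and its interval included equal shares. At the other end bma-mir-5841-p3 (1.90-fold), asu-miR-46-5p_1ss11TC (1.69-fold) and bma-miR-252_R-1 (1.53-fold) were higher in L4 by the point ratio, with intervals that included equal shares. Per mappable read 0 members were higher in L3 and 7 in L4, against 9.09% and 66.7% of all 66 rows. Of the members named, only bma-miR-5866 kept its direction among those higher in L3.

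Microfilariae and L3 are the stages on either side of the mosquito. Of 26 members, 11 were at least 2-fold higher in microfilariae and 3 in L3, against 31.8% and 11.3% of all 151 rows. The members' shares were 42.3% and 11.5%. crm-mir-239b-p5_1ss6AC was 91.0-fold (95% interval 16.3 to 3595), hco-miR-993_R-1_2ss11GT22AG 24.3-fold (8.31 to 118) and hco-miR-307_R-3_1ss21TC 17.4-fold (3.11 to 691) higher in microfilariae, on 1 to 3 reads in L3. asu-miR-86-5p was 11-fold higher (5.98 to 23). These 4 directions held under every scaling, except that crm-mir-239b-p5_1ss6AC has no value without dog-matching rows. In L3 bma-miR-72_R-2 was 12.7-fold (3.78 to 38.5), bma-miR-153 5.12-fold and bma-miR-5866 2.38-fold (0.920 to 5.21) higher, and all 3 turned per mappable read. With the authors' library size parameter the split became 3 and 9, and per mappable read 25 and 0. Of all 151 rows, 10.6% and 25.2% were past 2-fold with the authors' parameter, and 92.1% and 5.30% per mappable read.

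Females carry microfilariae in the uterus, and the 2 libraries were compared directly. Of 30 members, 11 were at least 2-fold higher in females and 10 in microfilariae, against 42.5% and 28.2% of all 174 rows. The members' shares were 36.7% and 33.3%. Higher in females were bma-miR-72_R-2 (127-fold, 95% interval 68.6 to 266), bma-miR-1822 (54.1-fold, 14.3 to 458), hco-mir-5971-p5_1ss2AG (36.7-fold, 5.84 to 1526), bma-miR-5866 (36.0-fold, 27.9 to 47.3) and bma-mir-5841-p3 (24.2-fold, 15.3 to 40.2), among others. Of the 6 compared members with a lower-case mir name, 4 were higher in females and 0 in microfilariae, with a median log2 ratio of 2.35 against 0.10 over all rows. Of these 4, hco-mir-5971-p5_1ss2AG reached the read minimum only in females, so its direction was tied to its selection. The same held for prd-miR-72-5p_R+3 and bma-miR-234_R+3, also among the 11 members higher in females. In microfilariae prd-miR-277-3p_1ss12AG (10.9-fold, 1.75 to 449), bma-miR-5366_R-1_1ss11GA (7.24-fold, 1.10 to 306) and bma-miR-283_R-2 (5.69-fold, 0.827 to 245) had high ratios, each against 1 read in females, and for bma-miR-283_R-2 the interval included equal shares. bma-miR-153 had the same ratio of 5.69 on 33 against 3 reads, with an interval of 1.78 to 29. These rows higher in microfilariae all reached the read minimum only there, so their direction was tied to selection as well. So did bma-miR-5365b_1ss13CT, with 20 reads in microfilariae and 0 in females. The counts of 11 and 10 thus include members whose direction was tied to selection. Among the members with 100 or more reads, hco-miR-307_R-3_1ss21TC (4.05-fold) and hco-miR-993_R-1_2ss11GT22AG (3.85-fold) led for microfilariae.

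The L4 library was set against both adult libraries. Against males, 0 of 14 members were at least 2-fold higher in L4 and 11 in males, with 10.4% and 67.5% of all 77 rows. Against females, 0 of 24 were higher in L4 and 23 in females, with 11.5% and 85.1% of all 148 rows. Of the 23, hco-mir-5971-p5_1ss2AG and prd-miR-72-5p_R+3 reached the read minimum only in females, so their direction was tied to selection. The members' shares of 78.6% in males and 95.8% in females thus stood beside backgrounds that were also high. bma-lin-4 held 89.6% of the L4 reads, and with it and bma-miR-100d_R+1 left out of the totals the counts became 4 and 6 against males and 5 and 7 against females. The shares of all rows then became 33.8% and 48.1% against males, and 22.3% and 32.4% against females. Directions that held under every scaling that kept the row included that of cel-mir-5592-1-p3_1ss8TC, 1015-fold higher in males (95% interval 432 to 3138). bma-miR-1822 was at least 274-fold and bma-mir-5838-1-p5 at least 42.9-fold higher in males. Both had 0 L4 reads, so no scaling could turn their direction, and bma-mir-5838-1-p5 reached the read minimum only in males. In females crm-mir-239b-p5_1ss6AC was 441-fold (240 to 920), bma-miR-5866 91.2-fold (50.8 to 183) and bma-miR-5843 72-fold (12.6 to 2877) higher, again under every scaling that kept the row. The scaling without dog-matching rows leaves out cel-mir-5592-1-p3_1ss8TC and crm-mir-239b-p5_1ss6AC. At the other end, bma-miR-252_R-1 (2.39-fold) and asu-miR-46-5p_1ss11TC (2.06-fold) were higher in females by share and higher in L4 under 4 of the 6 other scalings. bma-miR-234_R+3 (1.49-fold) was not separated and was also higher in L4 under those 4 scalings. Against males, cel-miR-83-3p_2ss10AT22AT was 1.10-fold higher in males (0.124 to 4.59, on 2 male reads) and higher in L4 under 5 of the 6 other scalings, and asu-miR-46-5p_1ss11TC (16 reads against 0) and asu-miR-184-3p_2ss11AT12CT (13 against 0) were undecided at the male depth.

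**Figure D5:**
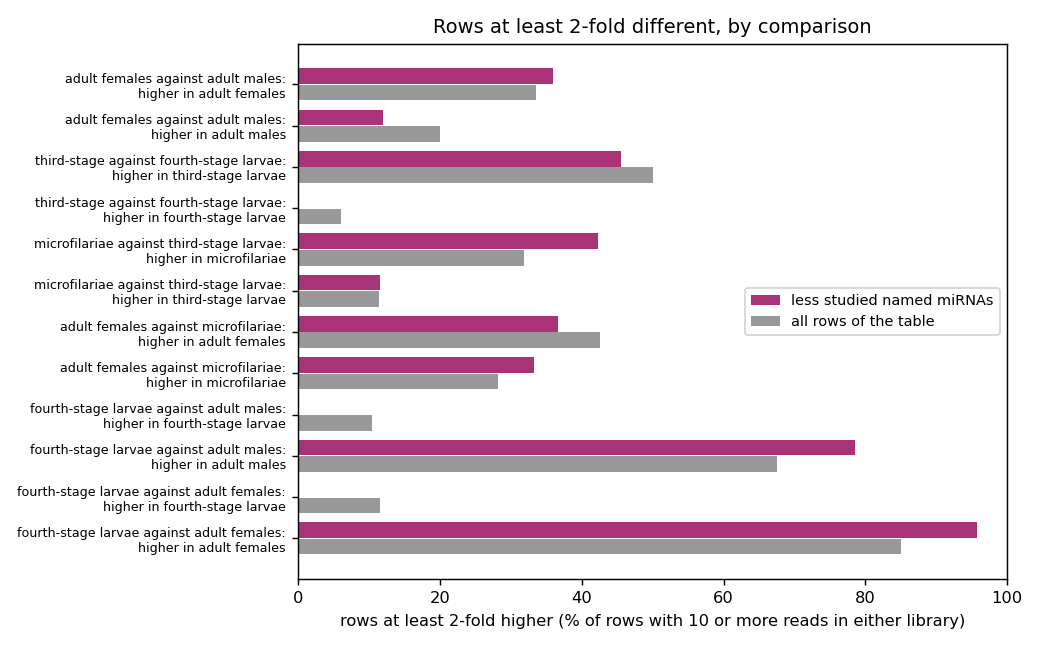
Percentage of rows at least 2-fold higher in each direction of the 6 comparisons, for the members (purple) and for all rows of the table (grey). The pairs of bars run together, with the members at 95.8% and all rows at 85.1% higher in females than in L4.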

How the data were processed

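Small RNA was measured in culture medium of 5 stages or sexes, 1 library each. Bowtie and bcl2fastq 1.8.4 are named in the submitters' processing notes. The authors cut the 3' adapter and kept reads of 18 to 25 nt, per the file headers. The deposited raw columns hold estimated counts per distinct sequence, not normalized by the authors, and were rounded here to whole numbers (0 of the members' values were fractional). The deposited normalized columns hold a signal, the raw count divided by a library size parameter, with 0.001 for a raw 0, and all 2004 whole values above 0 fitted within 1%. They entered only as an alternative scaling. Bowtie's settings, genome and miRNA database were not given in the sources used here, and 1 line of the table was not analysed here.

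Members were taken by name and rounded reads. In member names a token such as 1ss8TC gives a position and 2 bases, and the second base stood at that position of the row's sequence for 17 of 18 tokens, and the exception is in the row with L-1. The file does not explain the suffixes, and names are printed as they stand. Shares were taken of the 5 raw column sums, with exact Clopper-Pearson 95% intervals, and ratios with exact conditional binomial 95% intervals (scipy 1.17.1). Against 0 reads, a fold is a lower bound computed against 3 counts in that library, and where that bound crossed equal shares the log2 ratio was taken as 0 (undecided). Rows with 10 or more reads in either library entered a comparison, and those past 2-fold were counted. Members with 50 or more reads in a library, and the 3 highest and 3 lowest ratios of each comparison, are named by rule. For the 5 most abundant members the 2 nearest rows were taken by Euclidean distance between centred log2 shares, with counts under 3 set to 3. The 6 other scalings were TMM, median of ratios, the authors' library size parameter, mappable reads, totals without bma-lin-4 and bma-miR-100d_R+1, and totals without dog-matching rows. TMM factors came from edgeR 4.0.16, pairing from RNAduplex 2.7.2. The interval code was tested on simulated data. Members and lists were chosen with earlier results of these data known. Of 14 lists of related miRNAs 9 held a member, with 19 members in all. The lists of miR-51/miR-100 relatives under other numbers, miR-8/miR-200, miR-63 to miR-66 with miR-229, miR-235 and let-7 relatives held none. The other lists are described with their members: the miR-72/miR-31, miR-83/miR-29, miR-281/miR-46 and miR-67/miR-307 families, miR-252, miR-239, miR-86 (from a list of intestinal or epidermal miRNAs), miR-993 with miR-184, and rows with a lower-case mir.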

Additional observations from a re-analysis of the deposited data

How the results depend on the processing

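No paired analysis was possible because each group has 1 library, and no replicate could be left out. Depth limited the L3 and male values most, since a count of 0 allows 0.00871% of the table in L3 and 0.00910% in males against 0.000413% in microfilariae. Against the share of the table, every log2 ratio of females over males shifted by 0.83 under TMM and 3.60 per mappable read, that of L3 over L4 by -0.40 and -2.55, and that of L4 over females by 2.33 and -1.26. Except where stated, the cause of a change was not tested.

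For females against males, the 9 members higher in females became 22 per mappable read, and the 3 higher in males became 7 without the most abundant row of each library and 5 with no read minimum. Of all 140 rows, 90.7% were higher in females per mappable read, and 29.3% in males without the most abundant rows. Between L3 and L4 the counts of 5 and 0 became 4 and 3 under TMM, 1 and 4 under median of ratios, 2 and 3 with the authors' parameter, 0 and 7 per mappable read and 1 and 4 without the most abundant rows. For all 66 rows the shares were 33.3% and 13.6%, 18.2% and 30.3%, and 24.2% and 19.7% in the same order. They were 9.09% and 66.7% per mappable read and 15.2% and 36.4% without the most abundant rows. With a minimum of 20 reads 1 was higher in L3, as fewer rows were compared, and with no minimum 13. Between microfilariae and L3 the counts of 11 and 3 became 6 and 5 under TMM, 4 and 8 under median of ratios, 3 and 9 with the authors' parameter, 25 and 0 per mappable read and 6 and 5 without the most abundant rows. For all 151 rows the shares were 21.2% and 15.9%, 15.9% and 22.5%, and 10.6% and 25.2% in the same order. They were 92.1% and 5.30% per mappable read and 21.2% and 15.9% without the most abundant rows. Without rows listed with dog genome matches 1 was higher in L3, against 6.50% of all 123 rows. Between females and microfilariae, the 10 higher in microfilariae became 17 under TMM and 17 per mappable read, against 42.5% and 43.1% of all 174 rows. Between L4 and males the counts of 0 and 11 became 7 and 5 under TMM, 7 and 4 under median of ratios, 7 and 4 with the authors' parameter, 4 and 6 per mappable read and 4 and 6 without the most abundant rows. For all 77 rows the shares were 42.9% and 37.7%, 44.2% and 36.4%, and 45.5% and 36.4% in the same order. They were 33.8% and 48.1% both per mappable read and without the most abundant rows. The 11 higher in males became 7 without dog-matching rows (67.9% of all 53 rows), 7 at a minimum of 20 reads and 19 with no minimum. Between L4 and females the counts of 0 and 23 became 3 and 9 under TMM, 5 and 6 under median of ratios, 5 and 6 with the authors' parameter and 5 and 7 without the most abundant rows.

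The members' sum, 1.11-fold higher in males than in females, turned to 0.624 under TMM and 0.0912 per mappable read, and was 1.74 without the most abundant rows. Without those rows the summed shares were 2.87% in microfilariae, 1.49% in L3, 2.28% in L4, 5.69% in females and 9.87% in males, since the totals are smaller. Without dog-matching rows they were 1.77% in microfilariae, 3.11% in females and 3.63% in males. Without asu-miR-5360-5p and crm-mir-239b-p5_1ss6AC, an alternative chosen after seeing the data, they were 0.886%, 0.186%, 0.0730%, 1.01% and 2.15% in the order from microfilariae to males. Members found fell from 26 to 9 in microfilariae, from 11 to 1 in L4 and from 24 to 8 in females when libraries were thinned to the smallest total, and at 20 reads to 1 in L3 and 4 in L4. The other 76 values stayed within 1.5 times the reported count or inside its interval.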
